A study of Homo sapiens with 2 samples.

Results

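The GIMAP gene cluster and the DNA beside it, a 1 Mb window of human chromosome 7 (hg19 positions 150000000 to 151000000), held 37 of the 20074 peaks of the deposited lists. The members were all peaks with at least 1 base in that window, which gave 29 of the 17396 UTX peaks and 8 of the 2678 TAL1 peaks. The cluster was taken to run from 150130000 to 150460000, about 330 kb, and held 8 UTX and 3 TAL1 peaks. The remaining 670 kb held 21 UTX and 5 TAL1 peaks. The window was chosen by its measured counts of UTX and TAL1 peaks, which were high in both lists, so these counts are a description and were not tested.

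The study used chromatin immunoprecipitation followed by sequencing (ChIP-seq) in untreated Jurkat cells, a long-used human line derived from T-ALL (T cell acute lymphoblastic leukaemia). The series held 1 library made with antibodies against UTX and 1 mock library made with an isotype IgG, both from this single cell line and without replicates. A peak list stands for the UTX library, and the mock library was not analysed here. The submitters drew the TAL1 list from an earlier study, and the sources used here do not give its cells, its caller, its threshold or the number of libraries behind it. UTX (KDM6A) is a demethylase of lysine 27 on histone H3, and TAL1 is a helix-loop-helix transcription factor switched on abnormally in some T-ALL. Each list gives positions only. Depth and enrichment are therefore unknown, and width in bases is the only measure of a peak's size. Shares are given with 95% exact binomial (Clopper-Pearson) intervals. All intervals cover the counting of peaks only and treat neighbouring peaks as independent.

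GIMAP genes encode GTPases of immunity-associated proteins, small GTP-binding proteins found mainly in lymphocytes, where they are known for roles in cell survival and homeostasis. The genes lie side by side and arose by duplication, so their sequences resemble each other. In gene order, the members are GIMAP8, which has several GTPase domains, GIMAP7, which can stimulate GTP hydrolysis by its relatives, and GIMAP4, linked to T cell apoptosis in mice. These are followed by GIMAP6, which binds autophagy proteins, GIMAP2, which assembles on lipid droplets, GIMAP1, needed for mature lymphocytes in mice, and GIMAP5, whose loss causes lymphopenia in rats. An enhancer in this cluster has been described as a target of TAL1 in T-ALL cells. The nearest named protein-coding neighbours in the RefSeq gene order are ZNF775, a zinc finger gene, before GIMAP8, and TMEM176B and TMEM176A, which encode membrane proteins, after GIMAP5. Farther out lie REPIN1 and RARRES2, the gene of the secreted protein chemerin, on one side. AOC1, the gene of diamine oxidase, and KCNH2, a potassium channel gene, lie on the other. The gene annotation at hand follows the GRCh38.p14 build and the peaks follow hg19, so no peak was assigned to a gene or promoter.

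Sequence of the hg19 peaks was not used here. The promoters of the 7 GIMAP genes are shown in its place, because the genes that give the cluster its name share a short motif there. That motif was 1 of 8 searched and was singled out after its matches had been seen. All 7 genes matched the RefSeq promoter table (GRCh38.p14, 250 bases before to 50 bases after the annotated start). The stretches below run from base -70 to base 10 around the start site, 5′ to 3′ on each gene's own strand, where base 1 is the first of the transcript. GIMAP6 lies on the minus strand of chromosome 7 and the other members on the plus strand. Capitals mark the letters AGGAAG, a form of the core bound by ETS family factors, on either strand (CTTCCT where the match is on the other strand).
GIMAP8: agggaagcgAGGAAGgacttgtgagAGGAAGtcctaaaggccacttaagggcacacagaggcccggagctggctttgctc
GIMAP7: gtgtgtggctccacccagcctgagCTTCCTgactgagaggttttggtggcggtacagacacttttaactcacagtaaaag
GIMAP4: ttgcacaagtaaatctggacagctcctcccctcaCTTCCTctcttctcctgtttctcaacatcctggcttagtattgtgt
GIMAP6: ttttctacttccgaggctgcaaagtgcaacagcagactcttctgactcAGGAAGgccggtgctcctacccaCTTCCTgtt
GIMAP2: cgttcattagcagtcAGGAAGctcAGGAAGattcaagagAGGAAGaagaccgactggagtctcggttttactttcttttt
GIMAP1: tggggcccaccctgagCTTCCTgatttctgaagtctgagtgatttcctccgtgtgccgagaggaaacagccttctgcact
GIMAP5: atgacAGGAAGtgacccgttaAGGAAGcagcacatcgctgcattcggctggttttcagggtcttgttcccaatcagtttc

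The ETS core was found in 7 of the 7 GIMAP promoters, with 12 matches in all, whereas 33.6% of the 35116 RefSeq promoters of the same length held it. GIMAP2 had 3 matches, GIMAP8, GIMAP6 and GIMAP5 had 2 each, and GIMAP7, GIMAP4 and GIMAP1 had 1 each. In every member at least 1 match began between 65 and 22 bases upstream of the start site. Of all promoters, 6.55% had a match beginning in that 44-base stretch, whose limits were read from the members themselves. Promoters of duplicated genes are not independent, as the run around CTTCCT that GIMAP7 and GIMAP1 share shows, and no test was made. A match is a run of letters and not a measured binding site.

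E-boxes are the sites of basic helix-loop-helix factors such as TAL1. The general E-box, CANNTG, occurred in 4 of the 7 GIMAP promoters against 68.7% of all promoters, with 4 matches in GIMAP2, 2 in GIMAP4 and 1 each in GIMAP6 and GIMAP5. The form CAGATG, which TAL1 prefers with its partners, was present in 2 of the 7, GIMAP6 and GIMAP2, against 14.7% of all promoters. It began at base -148 in GIMAP6 and at base -223 in GIMAP2. These 2 sites are printed because they are the members' matches to the TAL1-type letters, which are in capitals (CATCTG in GIMAP6, where the match is on the other strand).
GIMAP6: atctttctgaggCATCTGcctctttttaag
GIMAP2: ttctttccagtcCAGATGaaatcattaaaa

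The other E-box forms searched, each counted within CANNTG as well, were CACGTG in GIMAP4 and GIMAP2, CAGGTG in GIMAP4 and CAGCTG in GIMAP5. These forms occurred in 7.26%, 20.6% and 17.9% of all promoters. The CANNTG matches at bases -175 and -166 of GIMAP2 had none of the forms searched. A GATA-type run, AGATAA, and a RUNX-type run, TGTGGT, were in 0 of the 7 windows, against 10.3% and 13.1% of all promoters. All 8 motifs were searched on both strands, and the ETS core was singled out after its matches had been seen. The GIMAP promoters had 40.3% to 50.7% G and C bases, with a median of 49.7%, against a median of 58.7% over all promoters. The lower quartile of all promoters was 47%, below the GIMAP median.

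**Figure D1:**
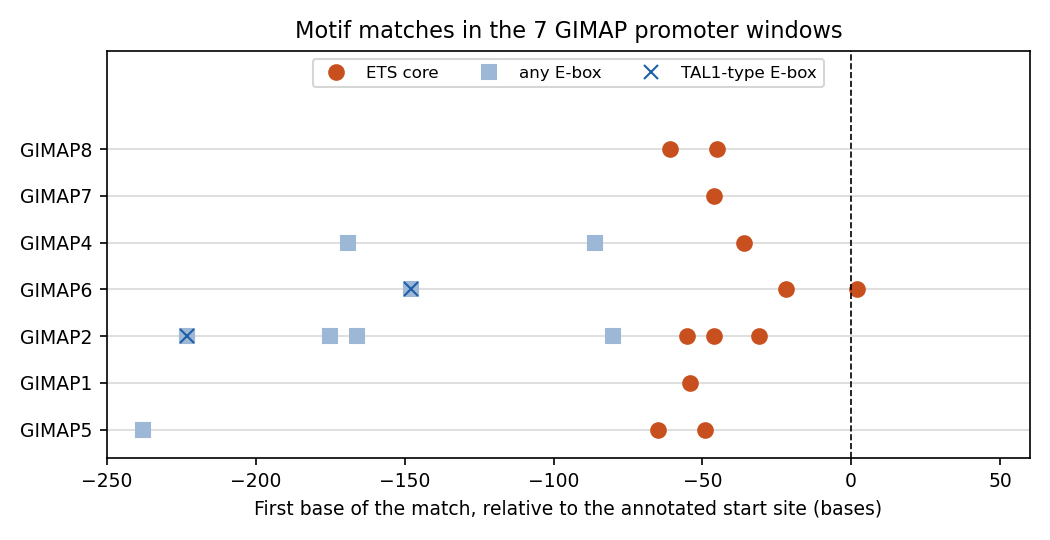
Position of motif matches in the promoter windows of the 7 GIMAP genes, in bases from the annotated start site (x axis), with 1 row per gene. Circles mark the ETS core, squares any E-box and crosses the TAL1-type E-box; ETS matches lie close to the start site in every gene, while GIMAP8, GIMAP7 and GIMAP1 have no E-box.

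Within the GIMAP cluster, most UTX peaks were of ordinary width. The UTX peaks are grouped here into 3 places, parted by stretches of 83.5 and 85.1 kb without a peak of either list. The first 124 kb of the cluster, up to position 150253817, held 0 peaks of either list. All 8 UTX and all 3 TAL1 peaks lay in the other 206 kb. The first place held 4 UTX peaks, at 150253817 to 150254153 (337 bases), 150261208 to 150261554 (347 bases), 150262368 to 150262645 (278 bases) and 150277170 to 150277478 (309 bases). The first of these 4 held a TAL1 peak and the other three did not. The next UTX peak came after 83.5 kb without a peak.

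The second place was the only one at which every UTX peak of the GIMAP cluster held TAL1. It consisted of the 2 widest UTX peaks of the cluster, 455 bases at 150360930 to 150361384 and 506 bases at 150365469 to 150365974, separated by 4.08 kb. Each held 1 TAL1 peak, of 202 and 96 bases. The third place followed after 85.1 kb and held UTX peaks of 360 bases at 150451054 to 150451413 and of 168 bases at 150452648 to 150452815. The nearest TAL1 peak was 85.4 kb from one of them and 87.0 kb from the other. The pair at the second place thus differed from the pair at the third place both in width and in TAL1. At the first place the UTX peak with TAL1 (337 bases) was narrower than 1 peak without it (347 bases). It was wider than the others there (278 and 309 bases), and nothing is read from so few peaks.

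**Figure D2:**
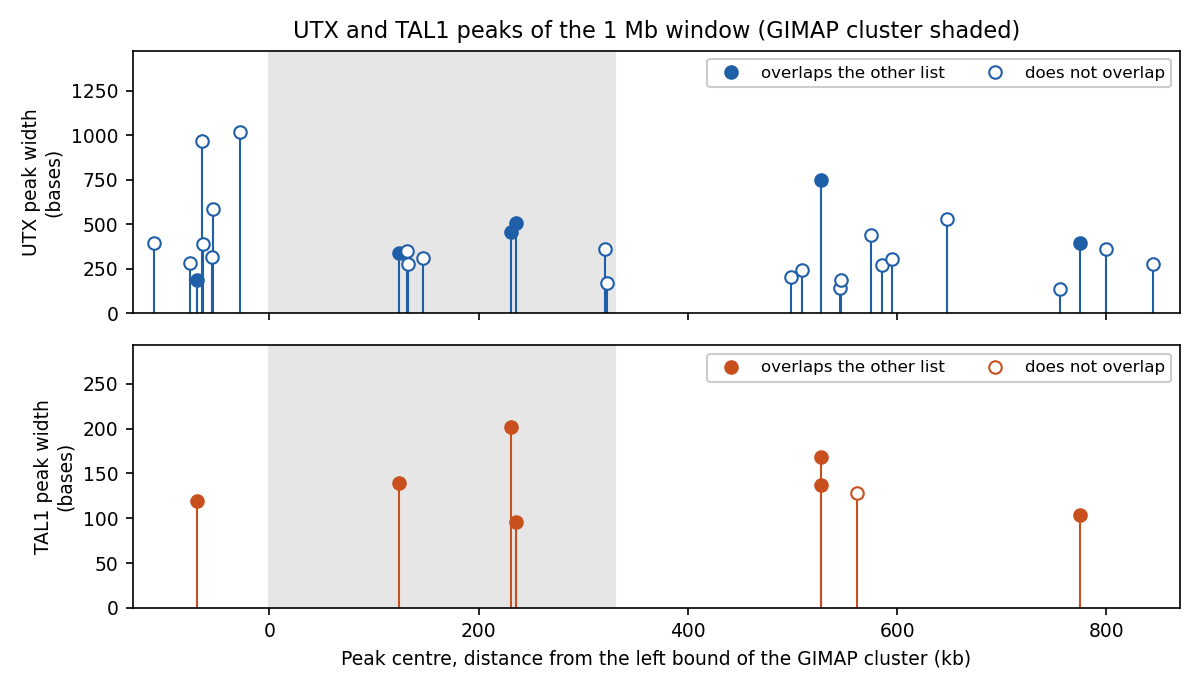
Peaks of the window by distance of their centre from the left bound of the GIMAP cluster (x axis, kb) and by width (y axis, bases), for UTX above and TAL1 below. Filled circles overlap a peak of the other list and open ones do not; the shaded GIMAP cluster holds 8 UTX and 3 TAL1 peaks, none of them in its first 124 kb.

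The 2 longest stretches of the window without peaks lay between the cluster's peaks and those of the flanks, but long stretches also lay within the cluster and the right flank. The longest stretch of the window without a peak of either list, 176 kb from 150452815 to 150628340, began 7.18 kb before the right bound of the cluster. The next longest, 151 kb from 150102609 to 150253817, spanned the left bound. Stretches of 107 kb within the right flank and of 85.1 and 83.5 kb within the cluster followed. When gaps of up to 10 kb were bridged, the UTX peaks of the cluster formed 4 groups, of which 3 held 2 or more peaks. This rule split the first place, since its last UTX peak, at 150277170 to 150277478, lay 14.5 kb from the nearest other. The UTX peaks of the flanks formed 13 groups, of which 3 held 2 or more peaks and 10 were single peaks.

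The number of peaks per Mb did not separate the GIMAP cluster from the rest of the window. The cluster had 24.2 UTX peaks per Mb and the rest of the window 31.3 per Mb, a ratio of 0.77 (95% exact conditional binomial interval 0.30 to 1.82). For TAL1 the densities were 9.09 per Mb in the cluster and 7.46 per Mb in the rest of the window, a ratio of 1.22 (interval 0.19 to 6.26). Both intervals include 1, so a difference in either direction was not detectable with these numbers of peaks. UTX peaks covered 0.836% of the cluster and 1.25% of the rest of the window.

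The rest of the window was not uniform. The left flank, the 130 kb before the cluster, held 8 UTX peaks, or 61.5 per Mb, and 1 TAL1 peak. The right flank, the 540 kb after the cluster, held 13 UTX peaks, or 24.1 per Mb, and 4 TAL1 peaks. Set against the right flank alone, the UTX density of the cluster had a ratio of 1.01 (exact conditional binomial interval 0.36 to 2.62). Set against the left flank alone the ratio was 0.39 (interval 0.13 to 1.20), so the lower density of the cluster rested on the left flank. A single run of 6 UTX peaks within 22.1 kb, at 150054528 to 150076614, made up most of that flank.

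The widest UTX peaks of the window also lay in the left flank. They measured 1016 bases at 150101594 to 150102609 and 967 bases at 150065002 to 150065968, and only 2.02% and 2.37% of the whole UTX list were wider. The third widest, 747 bases at 150657065 to 150657811, lay in the right flank. The narrowest, 134 bases at 150885354 to 150885487, was also in the right flank and was among the narrowest UTX peaks of the genome, with 0% of the list below it. The 2 widest peaks of the window held no TAL1 peak, and the third held 2.

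UTX peaks of the GIMAP cluster had a median width of 342 bases (range 168 to 506, n = 8), those of the rest of the window 313 bases (range 134 to 1016, n = 21) and the whole UTX list 320 bases (quartiles 230 and 457). The exact order-statistic interval of the median ran from 168 to 506 bases in the cluster (99.2% level) and from 245 to 439 bases in the rest of the window (97.3% level). The 2 intervals overlap widely, and each includes the median of the whole list. Of the 8 peaks of the cluster, 1 exceeded the upper quartile of the list and 1 was under the lower quartile, against 5 and 5 of the 21 in the rest of the window. No UTX peak of the cluster exceeded 1 kb, but only 2.15% of the whole UTX list did, so among 8 peaks nothing is read from this. The left flank had a median of 393.5 bases and the right flank 275 bases.

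**Figure D3:**
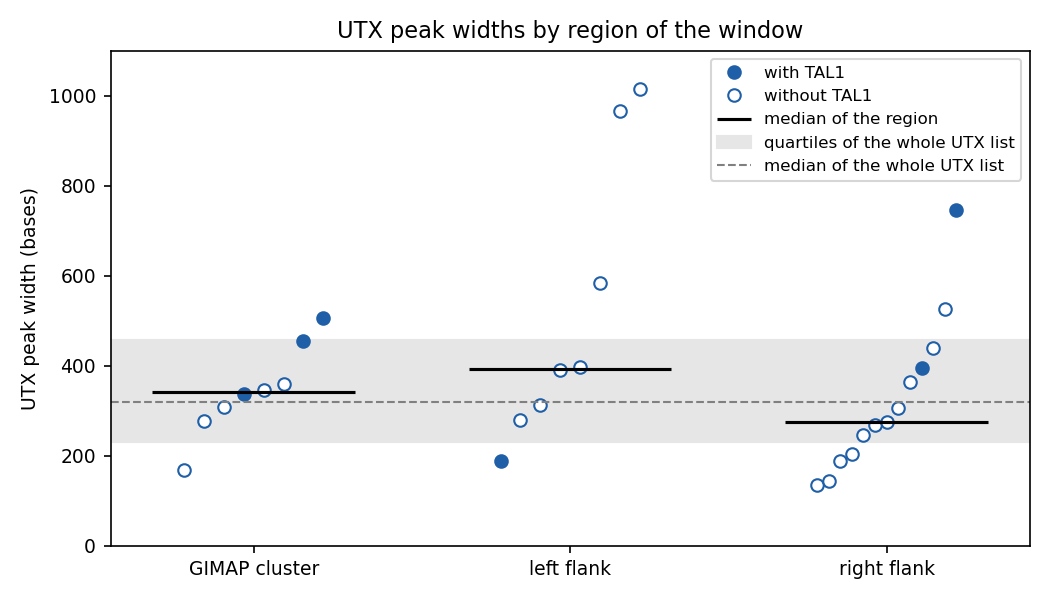
Width of each UTX peak (y axis, bases) in the GIMAP cluster, the left flank and the right flank; black lines are medians, the grey band the quartiles of the whole UTX list and the dashed line its median. Filled circles hold a TAL1 peak. The cluster's median of 342 bases lies near the whole list's 320, and the widest peaks, of 967 and 1016 bases, are in the left flank.

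Most TAL1 peaks of the window overlapped a UTX peak, as did most of the whole TAL1 list. In the GIMAP cluster 3 of 3 TAL1 peaks overlapped a UTX peak by at least 1 base, and in the rest of the window 4 of 5 did. Over the window this made 7 of 8 (87.5%, interval 47.3 to 99.7%), and the background over the whole TAL1 list was 80.8%, inside that interval. The TAL1 peak without UTX measured 128 bases, at 150691777 to 150691904 in the right flank, 13.3 kb from the nearest UTX peak. The TAL1 peaks of the window measured 96 to 202 bases with a median of 132.5, against 147.5 in the whole list (quartiles 116 and 188). Of the 8, 5 lay between these quartiles and 2 below the lower one, while 2 were at least as wide as that list's median, 1 of them in the cluster.

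Seen from UTX, 3 of 8 peaks of the GIMAP cluster held TAL1 (37.5%, interval 8.52 to 75.5%), against 3 of 21 in the rest of the window (14.3%, interval 3.05 to 36.3%). The window as a whole had 6 of 29 (20.7%, interval 7.99 to 39.7%), and the background over the whole UTX list was 12.1%. Each of these intervals includes the background. A window picked for many TAL1 peaks has a raised share of this kind by its choice, and nothing is read from it. In the window, the median width was 424.5 bases for UTX peaks that held TAL1 (range 188 to 747, n = 6) and 309 bases for those that did not (range 134 to 1016, n = 23). Over the whole UTX list the same medians were 405 and 310 bases, close to those of the window. The ranges within the window overlap, since the 2 widest peaks had no TAL1 and one of the narrowest had it.

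At the shared sites each TAL1 peak lay wholly inside its UTX peak, as did 90.2% of the 2164 overlapping pairs of the whole lists. In the GIMAP cluster, the TAL1 peak at 150253901 to 150254039 (139 bases) had its centre 15 bases left of the UTX centre. The TAL1 peak at 150360967 to 150361168 (202 bases), the widest of the window, lay 89.5 bases to the left. The TAL1 peak at 150365590 to 150365685 (96 bases), the narrowest of the window, lay 84 bases to the left. The TAL1 centre was thus close to the UTX centre at the first site and farther from it at the others.

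In the left flank, the TAL1 peak at 150060592 to 150060710 (119 bases) filled 63.3% of a UTX peak of 188 bases, the largest part at any shared site of the window. The 747-base UTX peak of the right flank held TAL1 peaks of 137 and 168 bases, with centres 251 bases left and 139.5 bases right of its own centre. Of the 2100 UTX peaks of the whole list that held TAL1, 58 held more than 1 TAL1 peak. The last shared site, at 150904222 to 150904325 (TAL1, 104 bases), lay 122 bases left of the centre of a UTX peak of 394 bases. The median distance between centres was 89.5 bases over the 7 pairs of the window, against 44.5 bases (quartiles 20 and 87.1) over all pairs. Of the 7 pairs, 4 exceeded that upper quartile, including both pairs of the 747-base peak. The TAL1 centre lay to the left in 6 of the 7 pairs and in 51.1% of all pairs, and with so few pairs no preference for a side is read from this.

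**Figure D4:**
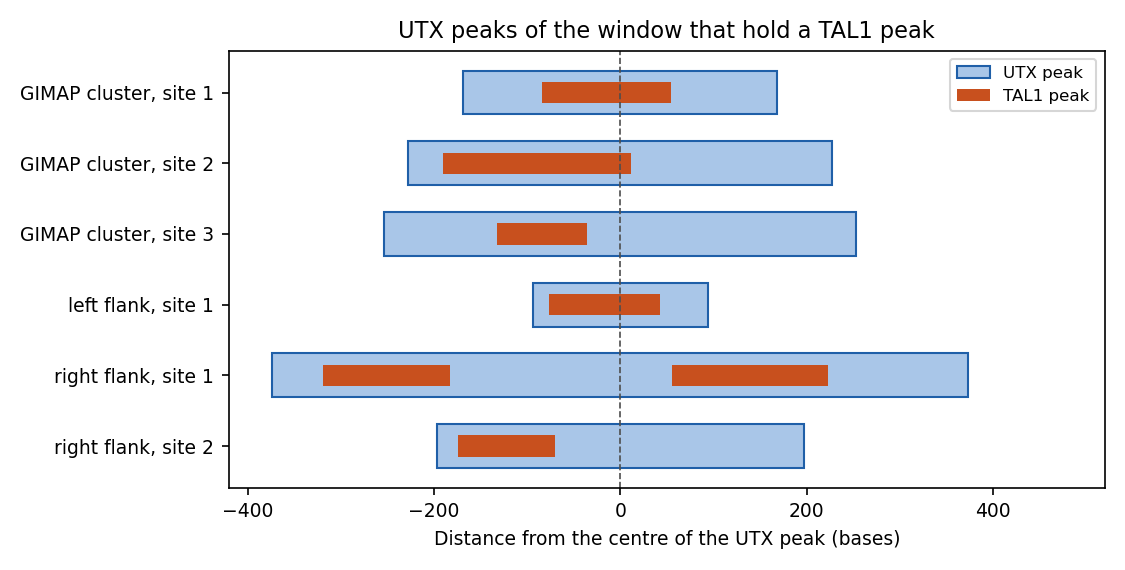
The 6 UTX peaks of the window that hold TAL1, aligned on the UTX centre (x axis, bases; lower coordinates to the left), with TAL1 peaks drawn inside them. The upper 3 rows are the sites of the GIMAP cluster, the others those of the flanks; 6 of the 7 TAL1 peaks have their centre left of the dashed line.

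The counts that chose the window were high beside its surroundings. Its 29 UTX peaks were exceeded in 25 of 3069 windows of 1 Mb, and its 8 TAL1 peaks in 4. The adjoining windows held 16 UTX and 1 TAL1 peak at 149 to 150 Mb, and 6 UTX and 0 TAL1 peaks at 151 to 152 Mb, while the median window of the genome held 3 UTX and 0 TAL1 peaks. At the edges, the outermost UTX peaks inside lay 20.1 kb from the left bound and 25.5 kb from the right bound of the window, and the nearest ones outside lay 109 and 47.3 kb away. The nearest TAL1 peaks outside were 433 kb to the left and 3.47 Mb to the right. The GIMAP cluster alone was set beside tiles of its own length. Of 8990 such tiles, 5.46% held at least 8 UTX peaks, 1.92% at least 3 TAL1 peaks and 0.99% both. These shares count tiles with as many peaks or more, over a different part of each chromosome. They are therefore not compared with the ranks of the window.

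Only 2 other windows had at least as many UTX and at least as many TAL1 peaks, 1 farther left on chromosome 7 (92 to 93 Mb) and 1 on chromosome 16 (89 to 90 Mb). The window of the GIMAP cluster had a median UTX width of 337 bases and 1.11% of its bases in UTX peaks. The window at 92 to 93 Mb had 73 UTX and 15 TAL1 peaks, a median UTX width of 759 bases and 18.6% of its bases in UTX peaks. The window of chromosome 16 had 48 UTX and 9 TAL1 peaks, a median of 399 bases and 2.50%. The GIMAP window had the lowest UTX count of the 3 because the others were selected for counts at least as high, while its median UTX width, which was not used to select them, was also the lowest. It had 3.62 UTX peaks per TAL1 peak, against 4.87 and 5.33 in the other two and 6.50 over the whole lists. This ratio is made of the same counts by which the windows were picked, so nothing is read from it. Its 1 TAL1 peak outside UTX had no counterpart in the other two, where 15 of 15 and 9 of 9 TAL1 peaks overlapped UTX. Over the whole TAL1 list 80.8% of peaks overlapped UTX, so nothing particular to the window is read from this peak. With 1 UTX library, and the number behind the TAL1 list not given, these differences have no replicate check.

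**Figure D5:**
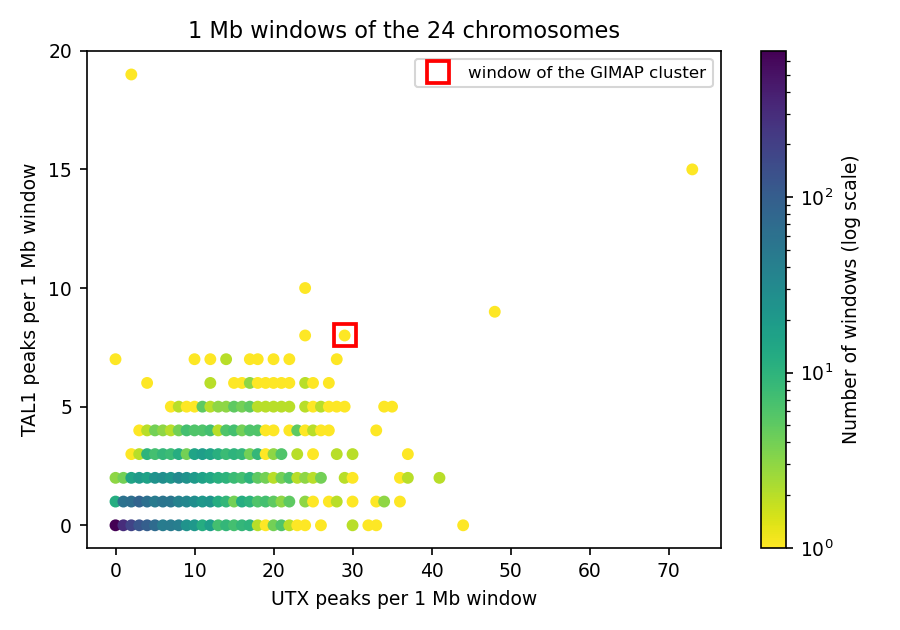
UTX peaks (x axis) and TAL1 peaks (y axis) in each of 3069 windows of 1 Mb; the colour gives the number of windows at a point on a log scale. The red square marks the window of the GIMAP cluster with 29 UTX and 8 TAL1 peaks, and 2 windows lie beyond it on both axes.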

How the data were processed

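UTX peaks of 1 ChIP library from Jurkat cells and a TAL1 list from an earlier study were used as deposited. Per the submitters' processing notes, BWA 0.6.2, SAMtools 0.1.18 and MACS2 2.0.10 were used with hg19; the sources used here do not give thresholds, filters or whether the IgG library served as control. The deposited lists hold 3 columns, the chromosome, start and end of each peak, and no score or count, so depth is unknown. Both were taken as hg19, since they overlap at 80.8% of TAL1 peaks. Positions are counted from 1.

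The bounds of the window and cluster, the members and the lists of motifs were chosen with earlier results of these data known. The text names every TAL1 peak of the window, every UTX peak with TAL1 or in the cluster, the 3 widest UTX peaks and the narrowest outside it. Peaks were counted as shared at an overlap of 1 base or more. No test was run, because the UTX list comes from 1 library, the libraries behind the TAL1 list are not given and the window was picked for its counts. Density ratios carry exact conditional binomial intervals. Windows were laid from the first base of each chromosome. Tiles followed a grid from the same base, but only those from the first to the last UTX peak of each chromosome were counted. The counting was checked on simulated lists. Calculations ran in Python 3.11.15 with pandas 2.3.3, numpy 2.4.6 and scipy 1.17.1. Alternatives covered the cluster bounds, the overlap rule and peak width.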

Additional observations from a re-analysis of the deposited data

How the results depend on the processing

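Of 30 values computed under other settings, 26 stayed within the interval of the reported value or, for counts, within 1.5 times. This count says little, since the intervals are wide, such as 0.19 to 6.26 for the TAL1 density ratio. The other overlap rules (50% of the shorter peak, or centres within 500 bases) could not change a share. Each shared TAL1 peak of the window lay wholly inside its UTX peak, with centres at most 251 bases apart. With peaks at least as wide as their list's median, the cluster held 5 UTX peaks and 1 TAL1 peak, in place of 8 and 3. With the wider TAL1 peaks alone, 6.90% of the window's UTX peaks held TAL1, a lower share by construction of a shorter list. The share of the window's TAL1 peaks that overlapped UTX was 100% (2 of 2), as the unshared peak of 128 bases was left out. The UTX density ratio of the cluster over the rest of the window was 0.65 with bounds moved 20 kb outward, 0.64 with bounds moved 20 kb inward and 1.02 with the wider peaks, so its direction is not settled. The TAL1 ratio was 1.02 with bounds moved outward and 1.47 with bounds moved inward. With the wider peaks it was 2.03, from 1 peak in the cluster and 1 in the rest of the window (interval 0.026 to 159). Leaving out 1 flank at a time was chosen after seeing the data. No paired analysis was possible because the UTX list comes from 1 library and the TAL1 list carries no replicate labels. With no scores or read counts, a threshold on enrichment could not be varied, and the depth of either list limits what counts as unshared to an unknown degree.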
